A study of Homo sapiens with 6 samples.

Results

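LIF, IL6, IL11 and CLCF1 are cytokines of the interleukin-6 family, LIFR, OSMR and IL6ST are subunits of their receptors, STAT3 is the transcription factor these receptors activate, and SOCS2 and SOCS3 belong to the family of feedback inhibitors that the pathway induces. The members were taken by gene symbol: a probe set was used if the platform annotation gives it exactly 1 symbol and that symbol is 1 of the 10. This yielded 30 probe sets of 9 genes, out of 41091 probe sets and 19775 genes named in the same way. CLCF1 was given to no probe set by this annotation and was not analysed here. The genes were measured in DU145, an androgen-independent prostate cancer cell line, kept in medium with charcoal-treated serum from the day before treatment. Cells received HGF at 25 ng/ml, a growth factor that signals through c-MET, or its vehicle, and RNA was taken after 2, 8 and 24 hours. Each of the 6 conditions, HGF and vehicle at each time, was hybridised to 1 Affymetrix U133plus2.0 array.

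Cytokines of this family share the signalling subunit gp130, the product of IL6ST. LIF binds a pair of LIFR and gp130, oncostatin M can use OSMR with gp130, and IL6 and IL11 first bind their own alpha chains, IL6R and IL11RA. The paired receptors activate JAK kinases, which phosphorylate STAT3, and STAT3 moves to the nucleus and induces SOCS3, which binds gp130 and the JAKs and ends the signal. In epithelial tumours the family links inflammation with growth and survival, and DU145 is known as a line that makes IL6 and LIF itself. The arrays read RNA only, so neither secreted cytokine nor phosphorylation of STAT3 was measured.

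The expression value (EV) of a probe set is its deposited intensity, brought to an array mean of 150. For ratios, EVs under 30 were raised to that floor, and where this concerned 1 of the 2 arrays the ratio is a bound. Ratios of HGF over vehicle were averaged per gene on the log2 scale over all its probe sets, those at the floor included. The selection rule asked for a 2-fold difference on 1 probe set and, with the same sign, an averaged log2 ratio of 0.50 or more in size. Of the 30 probe sets, 17 were above the floor in all 6 arrays, 7 in some and 6 in none, and each of the 9 genes had at least 1 probe set above the floor. With 1 array per condition, no replicate error or p-value exists within a time point, and neighbouring values in any order of arrays cannot be separated. Deposited array means lay between 149.1 and 205.4, and 33.1% to 36.7% of probe sets were above the floor after scaling. ACTB, read at its 3' and 5' ends as a measure of RNA integrity, had a 3'/5' ratio of 1.13, 1.31 and 1.71 in HGF arrays of 2, 8 and 24 hours and 1.17, 1.36 and 1.63 in vehicle arrays. All 6 epithelial markers tested were above the floor, and 0 of 4 leukocyte and 0 of 4 endothelial markers with a probe set were. Of 5 fibroblast markers, COL1A1 was above it.

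The sequence upstream of IL11 and IL6 is shown because IL11 had the largest ratios of the members at 2 and 8 hours and its relative IL6 did not pass the selection rule at any time. RefSeq promoter windows, which run from 250 bases before to 50 after a start site on build GRCh38.p14, were at hand for 7 of the 10 genes (10 windows). The 250 bases before the start of IL11, chr19:55370464-55370713 on the minus strand, and of IL6, chr7:22726950-22727199 on the plus strand, are printed 5' to 3', with matches to the AP-1 motif TGANTCA in capitals.
IL11: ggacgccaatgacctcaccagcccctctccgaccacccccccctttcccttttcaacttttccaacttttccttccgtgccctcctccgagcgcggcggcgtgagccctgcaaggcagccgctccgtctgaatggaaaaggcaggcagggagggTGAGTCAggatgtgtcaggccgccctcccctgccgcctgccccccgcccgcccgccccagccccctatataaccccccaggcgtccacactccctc
IL6: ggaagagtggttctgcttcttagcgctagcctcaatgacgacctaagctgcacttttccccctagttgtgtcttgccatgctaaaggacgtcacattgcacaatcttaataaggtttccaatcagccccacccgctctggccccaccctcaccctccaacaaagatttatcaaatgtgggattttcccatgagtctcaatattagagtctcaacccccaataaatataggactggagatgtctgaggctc
The AP-1 motif, searched on both strands, occurs once upstream of IL11, as TGAGTCA with its first base at position -96 from the start site. It has no match in the IL6 window, and was not searched for outside the windows. Whether it bears on the ratio of either gene was not tested. Of all 35116 windows, 7.71% hold it, and of the other members only OSMR had a match, TGATTCA, just after its start site at position 4. The motif TTCNNNGAA, the palindrome that STAT proteins bind, was matched in 2 of the 3 windows of LIFR and in no other member's, against 7.66% of all windows. The stretches around these LIFR matches lie on the minus strand at chr5:38557626-38557664 and chr5:38595547-38595585, with the match in capitals.
LIFR, stretch in the middle window: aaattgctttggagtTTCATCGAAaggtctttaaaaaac
LIFR, stretch in the most upstream window: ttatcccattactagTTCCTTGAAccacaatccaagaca
Its stricter form TTCCNGGAA, in 1.15% of windows, and the cyclic AMP element TGACGTCA, in 1.85%, had no match in any member, the 2 windows of SOCS3 included. A match is a string of letters and was not tested for binding, and windows of LIF and SOCS2 were not analysed here.

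LIF and IL11 were the cytokines that rose with HGF. LIF, named for inhibiting the differentiation of leukaemia cells, has 1 probe set, with an EV of 437.8, 530.0 and 447.8 in HGF arrays of 2, 8 and 24 hours and 184.0, 236.4 and 254.4 in vehicle arrays. All 3 HGF arrays lay above all 3 vehicle arrays. In bulk RNA, more expressing cells and more RNA per cell cannot be told apart. The ratio was 2.38-fold at 2 hours and 2.24-fold at 8 hours, which passed the rule, and 1.76-fold at 24 hours, which did not. These calls depend on the vehicle array: with the averaged vehicle values of the other times as reference, the log2 ratio of LIF was 0.84 at 2 hours, which no longer passed, and 1.10 at 24 hours, which passed. The vehicle arrays differed by a log2 ratio of 0.47 for 24 over 2 hours, so the HGF array of 24 hours compared with a higher vehicle EV than that of 2 hours. At 2 hours only 29 of 10159 genes above the floor had a higher ratio than LIF, at 8 hours 144 of 10460 and at 24 hours 163 of 10229.

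IL11, a cytokine of bone and stromal tissues that also acts on epithelium, had the largest ratios of the members at 2 and 8 hours, while at 24 hours LIF was above it. Its brighter probe set read 264.8, 272.1 and 103.5 in HGF arrays of 2, 8 and 24 hours, against 38.1, 26.0 and 60.5 in vehicle arrays. HGF arrays were again all above vehicle arrays. The EV in HGF cells was similar at 2 and 8 hours and lower at 24 hours, while the vehicle EV was highest at 24 hours. On this probe set HGF was 6.95-fold higher after 2 hours, at least 9.07-fold after 8 hours and 1.71-fold after 24 hours. The second probe set, 206926_s_at, was above the floor only in the HGF arrays of 2 and 8 hours, at 40.2 and 42.9. The gene's log2 ratio was at least 1.61 at 2 hours and at least 1.85 at 8 hours, both of which passed, and 0.39 at 24 hours, which did not, although it passed at 0.81 with the averaged vehicle values of the other times as reference. Only 12 genes at 2 hours and 11 at 8 hours had a higher ratio.

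IL6, a main inducer of the acute phase response, did not pass at any time. Its single probe set read 165.2, 105.3 and 125.4 in HGF arrays of 2, 8 and 24 hours and 121.6, 78.1 and 120.7 in vehicle arrays. HGF was the higher array in 3 of 3 pairs, but the groups overlapped, and the log2 ratios of 0.44, 0.43 and 0.05 did not pass the rule. Between vehicle arrays IL6 differed by -0.64 for 8 over 2 hours and 0.63 for 24 over 8 hours, both larger than any of its ratios of HGF over vehicle. Of 7 other cytokines of the family, 5 had a probe set (OSM, CNTF, CTF1, IL27 and EBI3), and all 5 were under the floor in all 6 arrays.

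The receptor subunits LIFR and IL6ST were lower with HGF than with vehicle at 8 hours, when 15.1% of all genes were lower by the rule. IL6ST, the shared gp130 chain, has 7 probe sets, and 5 exceeded the floor in some array. On the brightest, 212195_at, the EV was 1119, 599.3 and 1474 in HGF arrays of 2, 8 and 24 hours and 1234, 1710 and 962.9 in vehicle arrays. The HGF array of 8 hours was the lowest of the 6 arrays on the 4 probe sets above the floor in all arrays. On 204864_s_at it was under the floor, as was the HGF array of 24 hours. The vehicle array of 8 hours was the highest on 3 of the 5. The 8 hour ratios of the 5 lay between 2.85-fold and at least 4.13-fold lower, and the gene was lower by a log2 ratio of at least -1.27. The ratio was -0.13 at 2 hours and 0.08 at 24 hours, neither of which passed, but with the other vehicle times as reference the 24 hour ratio was -0.67 and passed.

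Probe sets of IL6ST did not move together at 24 hours. The brightest was higher with HGF by a log2 ratio of 0.61, 211000_s_at was lower by -0.41, with an EV of 96.1 with HGF and 127.9 with vehicle, and the others lay between -0.01 and 0.21. Between vehicle arrays IL6ST was lower by -0.86 for 24 over 8 hours and by -0.64 for 24 over 2 hours, and both passed the rule. IL6ST thus differed between vehicle arrays of different times, and the size of the 8 hour ratio depends on the vehicle array: with the averaged 2 and 24 hour vehicle values as reference it was -0.73, which still passed.

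LIFR, the subunit that binds LIF, has 5 probe sets, and 4 exceeded the floor in some array. The brightest, 225575_at, read 100.8, 104.8 and 177.4 in HGF arrays of 2, 8 and 24 hours, against 199.6, 208.8 and 166.0 in vehicle arrays. On this probe set HGF was the lower array at 2 hours as much as at 8 hours, with log2 ratios of -0.98 and -0.99. The next, 227771_at, read 91.2, 33.5 and 32.4 with HGF and 90.7, 112.0 and 63.8 with vehicle, and 225571_at read 90.2, 18.9 and 65.3 with HGF and 62.6, 93.5 and 38.03 with vehicle. These 2 were lower at 8 hours by -1.74 and by at least -1.64, but had ratios of opposite sign at 24 hours, -0.98 and 0.78. The gene passed as lower at 8 hours (log2 ratio of at least -0.94), with ratios of -0.07 at 2 hours and -0.02 at 24 hours. At 8 hours it did not pass with a floor of 60 (-0.51) or on the brightest probe set alone (-0.99). The vehicle array of 8 hours was the highest of the 6 on 4 of 4 probe sets.

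OSMR, the oncostatin M receptor subunit, did not pass at any time. It is the neighbour of LIFR on chromosome 5, with 0 protein-coding genes between them in RefSeq, and IL6ST lies on the same chromosome. Its brightest probe set, 226621_at, read 1763, 1551 and 1485 in HGF arrays of 2, 8 and 24 hours and 1484, 1628 and 1369 in vehicle arrays, so the arrays of both treatments overlapped. The dimmest, 1554008_at, was higher in all HGF arrays, at 323.0, 277.7 and 230.8 against 184.7, 224.3 and 145.5 with vehicle. The third, 205729_at, read 667.7, 378.9 and 250.8 with HGF and 531.8, 575.1 and 273.9 with vehicle. It was thus lower with HGF at 8 hours, by a log2 ratio of -0.60. For the gene the log2 ratios of the 3 times were 0.46, -0.12 and 0.22, and in vehicle cells it was lower by -0.65 for 24 over 8 hours, which passed. In that vehicle comparison only 205729_at was 2-fold lower (-1.07), with 1554008_at at -0.62 and 226621_at at -0.25.

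**Figure D1:**
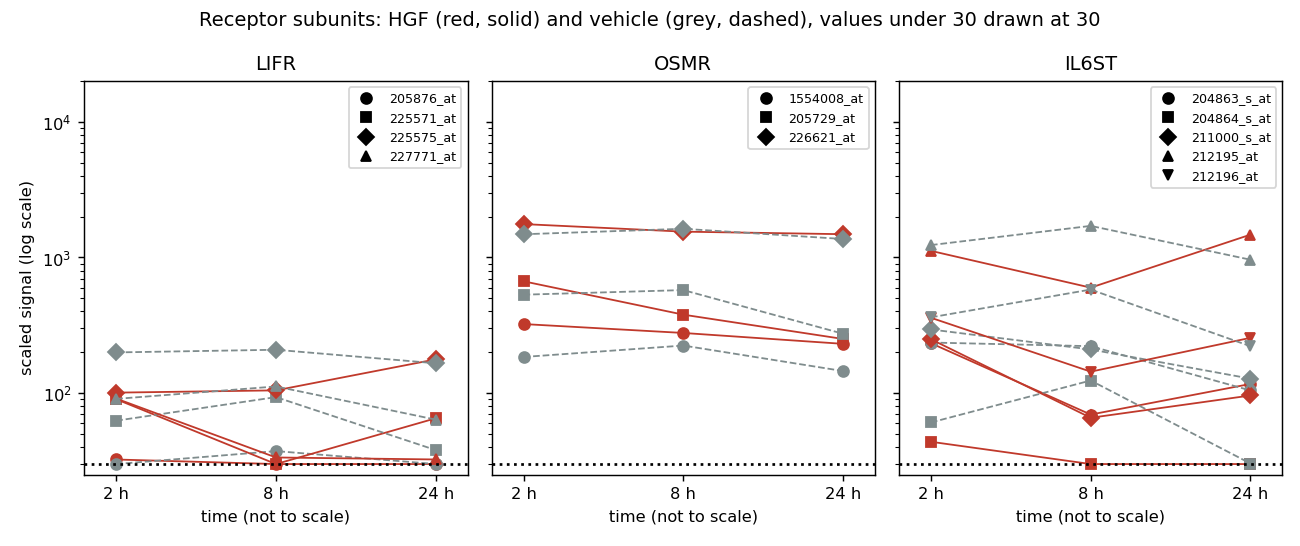
EV (y axis, logarithmic) of the LIFR, OSMR and IL6ST probe sets that exceeded the floor in any array, by hours of treatment (x axis, equal steps), with HGF in red and solid lines and vehicle in grey and dashed lines, 1 array per point and 1 marker shape per probe set. The 4 IL6ST probe sets above the floor in all arrays had their lowest value in the HGF array of 8 hours. The brightest OSMR probe set stayed between 1369 and 1763.

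The alpha chains that bring IL6 and IL11 to gp130 each passed the rule at 1 time, in single pairs of arrays. Of 5 other receptor chains, 1 was higher at 8 hours and 1 lower at 24 hours, when 5.09% and 1.08% of all genes were. The higher was IL6R, with a log2 ratio of 0.64 at 8 hours and, on its brightest probe set, an EV of 107.5 with HGF and 45.5 with vehicle. That vehicle EV was the lowest of the 3, beside 60.5 at 2 hours and 78.7 at 24 hours. With HGF the probe set read 112.4 at 24 hours, where the gene's log2 ratio of 0.43 did not pass. IL11RA was lower at 24 hours, with a log2 ratio of -0.85 and an EV of 30.4 with HGF and 87.1 with vehicle on its brightest probe set. At 2 hours the ratio of IL11RA was -0.34, with 58.1 against 99.5 on that probe set. At 8 hours it was 0.40, with 86.1 against 54.25, and neither ratio passed.

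STAT3 was bright and did not pass the rule at any time. Its brightest probe set, 208991_at, read 1435, 1636 and 1227 in HGF arrays of 2, 8 and 24 hours and 1567, 1335 and 1636 in vehicle arrays. The next, 208992_s_at, read 957.4, 1085 and 659.7 with HGF and 1053, 764.8 and 944.0 with vehicle. On 3 of 3 probe sets above the floor the HGF array of 24 hours was the lowest of the 6, but the log2 ratios of the gene, -0.11, 0.30 and -0.30 at 2, 8 and 24 hours, were under the threshold. Of 10 other JAK and STAT genes, 8 had a probe set, and 1 passed, when 15.1% of all genes were lower at 8 hours and 1.08% at 24 hours. STAT4, a factor best known from T helper cells, was lower at 8 hours by at least -1.65 and at 24 hours by at least -1.04. Its EV was 90.3, 20.8 and 28.3 in HGF arrays and 96.0, 94.0 and 61.8 in vehicle arrays, and the vehicle EV at 24 hours was lower than at 2 hours by -0.64. JAK1, the kinase most used by gp130, had log2 ratios of 0.07, -0.31 and -0.15.

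Of the feedback inhibitors, SOCS3 rose at 8 hours and SOCS2 did not change by the rule. SOCS3 on its brightest probe set, 227697_at, read 89.5, 226.9 and 140.8 in HGF arrays of 2, 8 and 24 hours and 138.8, 68.6 and 96.2 in vehicle arrays. The HGF array was the lower at 2 hours and the higher at 8 and 24 hours, with ratios of -0.63, 1.72 and 0.55 on the log2 scale. A second probe set, 206359_at, was above the floor only in the HGF array of 8 hours, at 61.9 (at least 2.06-fold), and another, 206360_s_at, reached 30.4 there and was under the floor elsewhere. The gene's log2 ratio at 8 hours was at least 0.70 and passed, and the ratios of -0.16 at 2 hours and 0.14 at 24 hours did not. The vehicle array of 8 hours was the lowest of the 6 on the brightest SOCS3 probe set, the only 1 above the floor in all arrays. On it vehicle 8 over 2 hours was -1.02. With the averaged 2 and 24 hour vehicle values as reference, the gene was at 0.51 in the 8 hour array, which still passed, but with a floor of 60 it was at 0.44 and did not.

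SOCS2, best known as a brake on growth hormone signalling, read 972.3, 898.3 and 862.8 on its brightest probe set in HGF arrays of 2, 8 and 24 hours and 875.5, 946.0 and 732.9 in vehicle arrays. The groups overlapped, and its log2 ratios of 0.09, -0.05 and 0.13 were among the smallest of the members. Of 15 other negative regulators 14 had a probe set, and 5 were lower at 8 hours, when 15.1% of all genes were: SOCS4 (-0.93), SOCS5 (-0.84), SOCS6 (-0.56), PIAS1 (-0.88) and PTPN11 (-0.92), the phosphatase SHP2 that docks to gp130. SOCS5 was higher at 24 hours (0.86), the only 1 of the 14 to pass then, when 2.01% of all genes were higher. However, its brightest probe set read 155.7 with HGF and 123.3 with vehicle at 24 hours. Between vehicle arrays SOCS5 also differed by -0.90 for 24 over 8 hours. CISH, a close relative of SOCS2, had ratios of 0.03, 0.11 and -0.17.

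Counted over the 9 genes, 2 were higher and 0 lower at 2 hours (LIF and IL11), 3 were higher and 2 lower at 8 hours (LIF, IL11 and SOCS3, and LIFR and IL6ST), and 0 passed at 24 hours. Over all genes above the floor in at least 1 array of a pair the rule took 0.817% as higher and 0.108% as lower after 2 hours. After 8 hours it took 5.09% as higher and 15.1% as lower, and after 24 hours 2.01% as higher and 1.08% as lower. The lower ratios of IL6ST and LIFR thus stood at a time when 1580 of 10460 genes were lower by the rule, and 335 genes had a lower ratio than IL6ST and 843 a lower ratio than LIFR. Under quantile normalization, which raised the median of all genes at 8 hours from a log2 ratio of -0.04 to 0.09, 1087 genes were higher and 1004 lower, in place of 532 and 1580, and IL6ST (-1.16) and LIFR (-0.75) passed as before. The median ratio of the members was 0.09, 0.30 and 0.13 at 2, 8 and 24 hours, and that of all genes -0.04, -0.04 and 0.02.

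Between vehicle arrays the same rule took 0 of the 9 genes for 8 over 2 hours, 1 for 24 over 2 hours (IL6ST, lower) and 4 for 24 over 8 hours (IL11 higher and LIFR, IL6ST and OSMR lower). The background was 0.542% higher and 0.377% lower, 0.273% and 2.25%, and 0.472% and 5.72% of all genes in these comparisons. Under quantile normalization the last had 218 higher and 222 lower genes in place of 49 and 594, and LIFR (-0.37) and OSMR (-0.48) no longer passed. IL6ST (-0.73) and IL11 (0.55) did.

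**Figure D2:**
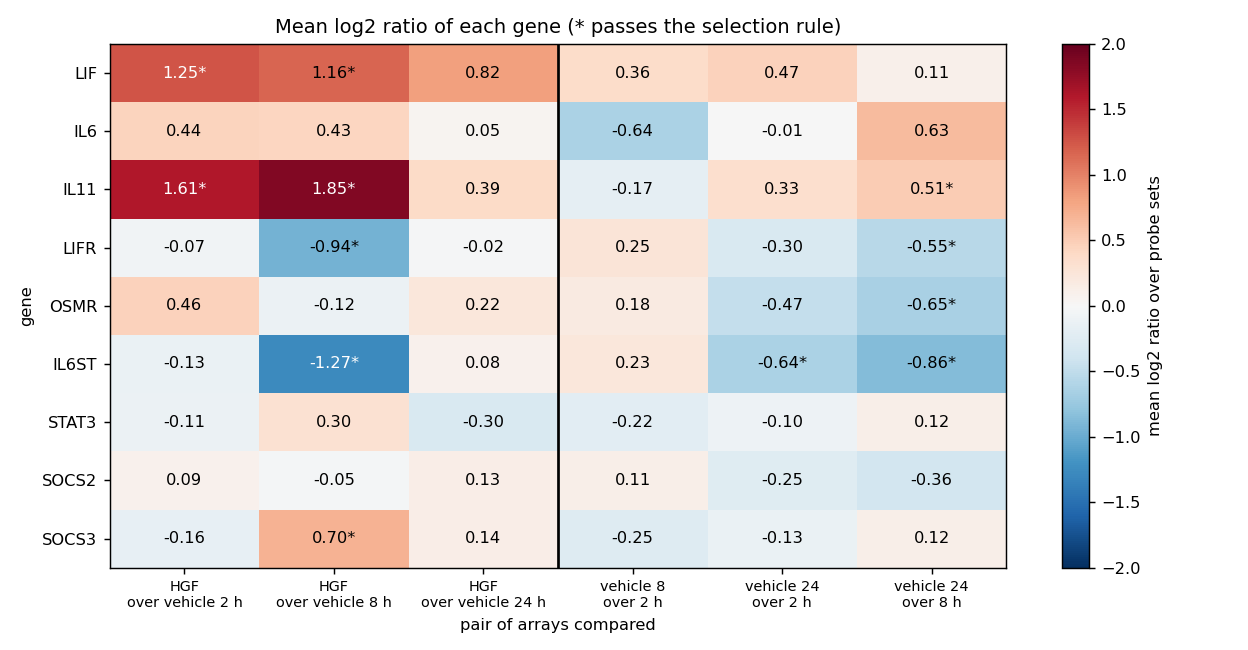
Mean log2 ratio over probe sets (colour and number) of the 9 genes (rows) for HGF over vehicle at 2, 8 and 24 hours and for pairs of vehicle arrays (columns), 1 array per condition, with * where the selection rule was passed. LIF and IL11 had their largest ratios at 2 and 8 hours (1.25 and 1.16, 1.61 and 1.85), and IL6ST had -1.27 at 8 hours with HGF and -0.86 for vehicle 24 over 8 hours.

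An effect of HGF common to the 3 times was estimated with limma, with the time point as a block and arrays of different times in place of replicates. Of 9982 genes 0.0% passed an adjusted p of 0.05, and 403 (4.04%) had an unadjusted p under 0.05. Of the 9 members 0 passed, and LIF and IL11 were under the unadjusted threshold. The log2 ratio of LIF was 1.08 (standard error 0.15), higher in 3 of 3 pairs, with an adjusted p of 0.655 in limma, and 12 genes had a smaller p. That of IL11 was 1.28 (standard error 0.31), higher in 3 of 3 pairs, with an adjusted p of 0.912. The next in size were IL6ST, at -0.44 (standard error 0.30), LIFR, at -0.34 (0.23), and IL6, at 0.31 (0.15), each with an adjusted p of 0.912 in limma. LIF and IL11 were the 2 members whose 3 HGF values all lay above the 3 vehicle values, as 5.16% of all genes did. No member had all HGF values below, as 4.58% of genes did.

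Genes commonly named as STAT3 targets were counted next to SOCS3. Of 24 genes 23 had a probe set and 18 were above the floor at each time. At 2 hours 3 were higher, when 0.817% of all genes were. They were JUNB (1.38), FOS (at least 1.53), both subunits of AP-1, and MCL1 (0.96), an inhibitor of apoptosis. At 8 hours 4 were higher, when 5.09% of all genes were. They were TIMP1 (2.36), an inhibitor of metalloproteinases, JUNB (1.46), the adhesion molecule ICAM1 (1.19) and the mucin MUC1 (0.76). At 24 hours TIMP1 (1.86) and MCL1 (0.76) were higher, and MUC1 (-1.21) and the transcription factor CEBPD (-0.82) lower. Of all genes 2.01% were higher then and 1.08% lower. The listed genes respond to several pathways, so the list does not read STAT3 alone. Its hepatic acute phase members SERPINA3, FGG, LRG1, A2M and HP were under the floor in all 6 arrays. The median ratio of the 18 genes was 0.29, 0.42 and 0.19 at the 3 times, and that of all genes -0.04, -0.04 and 0.02.

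The genes most like a member over the 6 arrays, by Pearson correlation of log2 values among the 9982 genes, are given as a description, since 6 arrays that share their times of harvest allow many high values. For LIF they were RASD1, a Ras-like protein (0.989), CDKN1A, the cell cycle inhibitor p21 (0.988), and JMJD6 (0.987). For IL6ST they were MOB4 (0.9995), SLC39A6, a zinc transporter (0.999), and ZC3H13 (0.998), and for LIFR TMEM106B (0.998), the ubiquitin ligase NEDD4 (0.998) and USP47 (0.997). For SOCS3 they were COPRS (0.993), ALDH9A1 (0.993) and SLC52A2, a riboflavin transporter (0.992). None of the 3 genes most like LIF was among the 3 most like IL6ST, LIFR or SOCS3. With only 3 of 9982 genes taken per member, an overlap was unlikely beforehand, so its absence does not set LIF apart.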

How the data were processed

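DU145 cells with HGF or vehicle were profiled on 6 Affymetrix U133plus2.0 arrays, 1 per condition. The authors deposited linear intensities for 54675 probe sets, made with MAS5 (version not stated) according to the submitters' notes. Quantile normalization, a mean of 150 and a floor of 30, named in the study's methods, were not visible in these intensities. Scaling and floor were therefore set anew, with quantile normalization as an alternative. The number of arrays limits the precision. Probe sets were named through the platform annotation, and those with several symbols were not used. The selection rule follows the thresholds of the study, which applied them at 24 hours. Here it was used at every time and between vehicle arrays, with floored probe sets in the average, so averages can differ from the study's. The 6 arrays were also fitted with limma (lmFit, eBayes, time as a block, Benjamini-Hochberg over 9982 genes that had 1 probe set over the floor in 3 or more arrays). Named genes were all members, up to 6 passing genes a pathway list and the 3 genes most correlated with a member. Members and lists were chosen with earlier results of these data known. Both steps, selection and fit, were checked on simulated data. The ratios were recomputed without a floor, with a floor of 60, after quantile normalization or centring, and with the median or brightest probe set, other probe set choices, other vehicle references and other thresholds. The fit used limma 3.58.1 in R 4.3.3, and all else ran in Python 3.11.15 (pandas 2.3.3, numpy 2.4.6), with figures by matplotlib 3.10.9.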

Additional observations from a re-analysis of the deposited data

Results flagged for a closer look

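IL6ST and SOCS3 had ratios of opposite sign at different times, in single pairs of arrays, and the differences between times were not tested. IL6ST passed the selection rule as lower at 8 hours, with a log2 ratio of HGF over vehicle of at least -1.27. Its ratio of 0.0794 at 24 hours did not pass, and its probe sets lay between -0.41 and 0.61 then. With the averaged vehicle values of the other times as reference, the 24 hour ratio was -0.67 and passed as lower. SOCS3 passed as higher at 8 hours (at least 0.70). Its ratio of -0.16 at 2 hours did not pass, and only its probe set 227697_at was above the floor then (-0.63).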

How the results depend on the processing

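Of 324 combinations of a member, a time and an alternative, 308 kept their side of the selection rule, 7 no longer passed, 9 newly passed and 0 changed sign after passing. Most of the 308 passed neither before nor after. Choices among probe sets could not alter LIF and IL6, which have 1 each. IL11 passed at 2 and 8 hours and IL6ST at 8 hours under all 12 alternatives, with log2 ratios of IL6ST between -1.78 and -0.73. LIF did not pass at 2 hours at a 3-fold threshold or against the mean of the 3 vehicle arrays (0.97), where 1 member was higher, nor at 8 hours at 3-fold. With a floor of 60 or only the brightest probe set, 1 member was lower at 8 hours, since LIFR no longer passed (-0.51 and -0.99), and with a floor of 60 SOCS3 no longer passed as higher at 8 hours (0.44). Without a floor, dim probe sets entered at their own EV or, if under 1, at 1, and many more genes passed in both directions. At 2 hours 2878 of all genes were then lower and 2785 higher, in place of 11 and 83. At 24 hours 3289 were lower and 2896 higher, in place of 110 and 206. Among these passing genes, 3 members were lower at 2 hours (IL6ST, SOCS2 and SOCS3) and 1 was higher at 24 hours (IL11). Against the mean of the 3 vehicle arrays 2 were higher at 24 hours, LIF (1.01) and IL11 (0.67). The mean of the vehicle arrays of the other times, an alternative chosen after seeing the data, gave 1 higher member at 2 hours (IL11, while LIF at 0.84 did not pass), and 2 higher and 1 lower at 24 hours, with IL6ST at -0.67. In limma 0 members were called under any alternative, including leaving out each time point, while 4 genes of 9982 were called without the block and 3 with the brightest probe set.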
